A study of Homo sapiens with 4 samples.

Results

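Human chromosome 19 carries 242 genes whose symbol is ZNF followed by a number, of 57428 genes that had an entry on their own strand in the deposited tables. Genes were taken by name and chromosome alone, with no use of their values. By the GENCODE release 29 annotation 240 of them are protein-coding and 2 are pseudogenes, 131 lie on the plus strand and 111 on the minus strand, and 233 stand in 9 clusters in which neighbouring ZNF genes lie less than 1 Mb apart, while 9 lie outside them. The measurement was Bru-seq, in which newly made RNA is marked with the nucleoside bromouridine and then isolated with an antibody. The 4 libraries came from U2OS, a human osteosarcoma line, carrying the same transgene in both groups, a stably overexpressed fusion of GFP and the decapping cofactor DCP1a kept under G418 selection. Hypertonic libraries 1 and 2 came from medium with 300 mM sodium, and isotonic libraries 1 and 2 from medium with 150 mM sodium that received a matched volume of ordinary saline. Both groups were labelled with 2 mM bromouridine for 30 min without a chase. The comparison asks how nascent transcripts differ between the media. The labels give neither the time in hypertonic medium nor whether replicates were separate cultures, so p-values cover only how far these libraries differ among themselves, possibly for technical reasons.

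Most numbered ZNF genes of chromosome 19 encode proteins with a row of C2H2 zinc fingers, and many of these carry a KRAB domain at the other end. The fingers bind DNA, often inside transposable elements, and the KRAB domain recruits TRIM28 (KAP1), which brings the H3K9 methyltransferase SETDB1, HP1 proteins and histone deacetylases and so keeps the bound locus silent. The genes multiplied by tandem duplication, which left rows of similar genes, often on the same strand and a short way apart. Reads from near-identical copies may be split between them by counting, so values of close relatives are uncertain.

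The repeated finger is visible in the coding sequences. The conserved linker between C2H2 fingers was searched in frame on the coding strand of the longest coding transcript of each gene. At least 3 copies were found in 185 of 240 protein-coding members, against 177 of 19340 other genes (0.915%). The median was 6 copies per member and the highest was 25, in ZNF850. Of 1230 gaps between neighbouring copies, 793 (64.5%) were exactly 84 bases from start to start, the length of 1 finger with its linker. The stretch below, bases 1075 to 1256 of the 1686-base coding sequence of ZNF460 in GENCODE release 29, is shown because it holds 3 of the 6 copies of a gene described later, with the linkers in capitals.
ZNF460 fingers: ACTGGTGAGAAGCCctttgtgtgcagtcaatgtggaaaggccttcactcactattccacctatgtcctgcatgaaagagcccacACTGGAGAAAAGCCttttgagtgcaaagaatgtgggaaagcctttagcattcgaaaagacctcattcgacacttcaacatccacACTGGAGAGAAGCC

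Promoters of these genes are mostly CpG-rich. RefSeq promoter windows of 300 bases around the start site on GRCh38.p14 matched 209 of the 242 genes, with 256 windows since some genes have several. The windows of the ZNF genes had a median of 20 CpG dinucleotides, against 14 over all 35116 windows, and a median ratio of observed to expected CpG of 0.763, against 0.579. On either strand TATAAA was present in 2.73% of them, against 11.5% of all windows, GGGCGG in 67.2%, against 44.95%, and CCAAT in 48.0%, against 34.6%. The 4 windows below belong to a tandem run on the plus strand, described later, that holds both weak and strong members. They were picked after its values were seen. Capitals mark the longest stretch shared by ZNF880, ZNF528 and ZNF534 with at most 1 differing base, TGCGCGCGCANTTTC, and the longest exact stretch shared by them elsewhere, AGACCCGGAAG, which do not overlap. Searched on both strands, the 15-base motif stood in 3 of the 256 member windows and in 4 of all 35116 windows. Those 3 belong to the genes it was taken from, so their count was fixed in advance. The 11-base motif stood in 10 member windows (3.91%), of 9 genes that include ZNF766, and in 26 of all windows (0.0740%). Its counts also include the 3 genes it was taken from, so neither comparison is a test of enrichment.
ZNF766 promoter, chr19:52269337-52269636, plus strand: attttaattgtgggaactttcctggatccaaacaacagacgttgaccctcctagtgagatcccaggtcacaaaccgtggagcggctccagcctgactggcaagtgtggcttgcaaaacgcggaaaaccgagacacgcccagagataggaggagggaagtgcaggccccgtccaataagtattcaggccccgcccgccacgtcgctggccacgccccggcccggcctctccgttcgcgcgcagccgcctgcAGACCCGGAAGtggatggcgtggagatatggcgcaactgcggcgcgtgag
ZNF880 promoter, chr19:52369673-52369972, plus strand: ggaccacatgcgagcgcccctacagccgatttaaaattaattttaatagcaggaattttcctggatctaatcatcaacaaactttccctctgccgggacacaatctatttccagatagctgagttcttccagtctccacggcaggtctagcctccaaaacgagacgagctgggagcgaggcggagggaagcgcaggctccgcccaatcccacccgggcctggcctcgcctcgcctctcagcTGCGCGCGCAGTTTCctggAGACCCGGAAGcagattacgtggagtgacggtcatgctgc
ZNF528 promoter, chr19:52397599-52397898, plus strand: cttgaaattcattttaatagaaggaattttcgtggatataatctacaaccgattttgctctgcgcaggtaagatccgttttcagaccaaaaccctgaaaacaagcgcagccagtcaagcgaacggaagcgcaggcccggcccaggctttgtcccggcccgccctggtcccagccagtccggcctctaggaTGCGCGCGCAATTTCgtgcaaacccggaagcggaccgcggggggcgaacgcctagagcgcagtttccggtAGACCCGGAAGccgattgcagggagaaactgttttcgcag
ZNF534 promoter, chr19:52428898-52429197, plus strand: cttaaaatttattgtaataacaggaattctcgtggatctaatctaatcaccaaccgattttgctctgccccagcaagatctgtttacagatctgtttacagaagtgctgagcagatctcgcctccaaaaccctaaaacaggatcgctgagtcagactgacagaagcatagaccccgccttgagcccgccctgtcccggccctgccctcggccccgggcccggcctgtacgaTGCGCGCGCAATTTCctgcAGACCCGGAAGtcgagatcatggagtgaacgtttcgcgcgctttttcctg

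Sense counts totalled 25068625 and 20870648 in hypertonic libraries 1 and 2, and 41932649 and 21865138 in isotonic libraries 1 and 2. No gene of the series passed the adjusted test (edgeR's quasi-likelihood test with Benjamini-Hochberg adjustment, lowest adjusted p = 0.192). The mesenchymal marker VIM averaged 20.03 RPKM (reads per length of gene and per sequencing depth) and FN1 1.15 RPKM, while COL5A1 and RUNX2 averaged 0.642 and 0.547 RPKM and TWIST1 was at 0. The epithelial markers CDH1 and KRT5 averaged 0.008 and 0 RPKM and EPCAM 0.119 RPKM, and of the blood and liver markers PTPRC averaged 0.029 RPKM, and CD3E and ALB were at 0.

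As a class the ZNF genes were transcribed at modest levels in this line. The median over members was 0.298 and 0.602 RPKM in hypertonic libraries 1 and 2, and 0.515 and 0.388 RPKM in isotonic libraries 1 and 2, so the groups overlapped. Their summed counts made up 0.278% and 0.464% of sense counts in the hypertonic libraries, against 0.420% and 0.355% in the isotonic ones. Over the 4 libraries 44 of 242 averaged at least 1 RPKM, 47 averaged less than 0.1 RPKM and 3 had no count in any library. A filter on low counts left 207 for testing, and the 35 that were left out averaged at most 0.170 RPKM. In bulk RNA such as this, fewer transcribing cells and less RNA per cell cannot be told apart.

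No ZNF gene of chromosome 19 passed the adjusted test, where 0.0% of all 21238 tested genes did, and the lowest adjusted p among them was 0.214 (edgeR). DESeq2 called 1 of them, ZNF233, where it called 2.82% of all tested genes, and limma-voom called 0 of them and 0.0% of all. Without hypertonic library 2, edgeR called 49 of 213 tested members (18 higher, background 11.1%, and 31 lower, background 10.3%), and it called 0 with any other single library left out. At an unadjusted p under 0.05, 10 of 207 were higher in hypertonic medium, against a background of 8.89% of all tested genes, and 7 were lower, against a background of 2.01%. These 17 were 92 of 213 without hypertonic library 2 (background 35.6%), 21 of 211 without hypertonic library 1 (background 22.6%), 4 of 212 without isotonic library 1 (background 3.58%) and 2 of 215 without isotonic library 2 (background 4.47%). The lower members depended on the scaling: scaling by total counts gave 10 higher (background 10.3%) and 0 lower (background 0.523%), and upper-quartile scaling 11 higher (background 10.9%) and 1 lower (background 0.942%). Hypertonic library 1 was the more extreme of the hypertonic libraries in 9 of the 10 higher members and in all but 1 of the 7 lower ones. Both hypertonic libraries lay above both isotonic ones in 37 members (17.9%, background 22.5%) and below both in 51 (24.6%, background 17.5%). The fitted log2 fold change, hypertonic over isotonic, was below 0 in 112 members (54.1%, background 47.6%), and in 85 with scaling by total counts and 92 with upper-quartile scaling. Its median was -0.07 over the 207 members and 0.04 over all tested genes, against 0.17 and 0.26 with scaling by total counts and 0.11 and 0.23 with upper-quartile scaling. With TMM scaling all protein-coding genes and ZNF genes of other chromosomes leaned the same way, and other protein-coding genes of chromosome 19 the opposite way. Of all protein-coding genes 53.6% were below 0, with a median of -0.05, and 20.5% had both hypertonic libraries below both isotonic ones. For ZNF genes of other chromosomes these values were 65.0%, -0.21 and 26.9%. For other protein-coding genes of chromosome 19 they were 38.6%, 0.18 and 8.22%. The members that were lower were the stronger expressed ones. All 7 of them averaged at least 0.427 RPKM with a median of 1.04 RPKM, whereas 9 of the 10 higher members averaged under 0.3 RPKM and their median was 0.080 RPKM, at levels where the filter on low counts keeps some members for 1 group alone.

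Among the higher members, ZNF233, a KRAB zinc finger gene of the cluster between ZNF575 and ZNF296 (chr19:44259880-44275317, plus strand; coordinates of genes and clusters are those of the deposited tables, hg38), differed most. It had 257 and 26 estimated counts in hypertonic libraries 1 and 2, against 7 and 4 in isotonic libraries 1 and 2, or 10.9 and 1.02 CPM (counts scaled to a common library size by TMM), against 0.172 and 0.206 CPM. Both hypertonic values lay above both isotonic ones, and hypertonic library 1 stood far above hypertonic library 2. ZNF233 passed the filter on low counts through its hypertonic libraries alone, so the order of the groups was fixed in advance. The fitted log2 fold change was 4.96 with a standard error of 1.22 (edgeR, adjusted p = 0.214), and it was 2.40 without hypertonic library 1.

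ZNF610 (chr19:52336245-52367778, plus strand), also a KRAB gene, had 22.8 and 7.11 CPM in hypertonic libraries 1 and 2, against 4.24 and 3.41 CPM in isotonic libraries 1 and 2. Its log2 fold change was 1.96 with a standard error of 0.72 (edgeR, adjusted p = 0.361), and 0.85 without hypertonic library 1. The hypertonic values were again unequal, with no overlap between groups. ZNF563 (chr19:12317477-12333720, minus strand) had 2.20 and 2.59 CPM in the hypertonic libraries, against 0.711 and 0.464 CPM in the isotonic ones. The hypertonic libraries were alike here, and the log2 fold change of 2.00 with a standard error of 0.75 (edgeR, adjusted p = 0.374) was 2.07 without hypertonic library 1. ZNF577 (chr19:51871282-51887951, minus strand) had 29.8 and 26.1 CPM in the hypertonic libraries, against 13.2 and 10.5 CPM in the isotonic ones, a log2 fold change of 1.23 with a standard error of 0.51. It was the only one of the 10 higher members above 0.3 RPKM, at 0.954 RPKM. It overlaps another gene on its strand, so reads of both cannot be separated with certainty.

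The same holds for ZNF846, ZNF20 and ZNF781, which also overlap a same-strand gene. ZNF846 had 5.24 and 4.99 CPM in hypertonic libraries 1 and 2, against 1.69 and 1.24 CPM in the isotonic ones, with a log2 fold change of 1.79 and a standard error of 0.69. ZNF20 shares its locus with the readthrough gene ZNF625-ZNF20 and had 6.42 and 2.63 CPM in the hypertonic libraries, against 0.883 and 0.568 CPM in the isotonic ones. ZNF781 had 2.28 and 0.668 CPM in the hypertonic libraries, against 0.172 and 0.310 CPM in the isotonic ones. All 3 had both hypertonic libraries above both isotonic ones. ZNF781 passed the filter on low counts through its hypertonic libraries alone, so for it this was fixed in advance. ZNF154, a gene known for promoter methylation in tumours and named after its values were seen, was the exception among the 10, with 4.73 and 0.275 CPM in hypertonic libraries 1 and 2 and 0.466 and 0.155 CPM in isotonic libraries 1 and 2, so its log2 fold change of 2.92 with a standard error of 1.24 came with overlapping groups.

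The lower members had more reads behind them in the isotonic libraries. ZNF460 (chr19:57280051-57293569, plus strand), whose fingers are printed above, had 19.6 and 32.9 CPM in hypertonic libraries 1 and 2, against 64.0 and 57.8 CPM in isotonic libraries 1 and 2. Its log2 fold change was -1.21 with a standard error of 0.47 (edgeR, adjusted p = 0.386). ZNF121 (chr19:9560353-9584533, minus strand), which lacks a KRAB domain, had 36.4 and 70.6 CPM in the hypertonic libraries, against 105 and 130 CPM in the isotonic ones, a log2 fold change of -1.14 with a standard error of 0.45 (edgeR, adjusted p = 0.400). For both genes the groups did not overlap, and hypertonic library 2 stood nearer to the isotonic libraries than hypertonic library 1 did. ZNF256 (chr19:57940833-57947675, minus strand) had 4.05 and 9.74 CPM in the hypertonic libraries, against 21.2 and 18.5 CPM in the isotonic ones, with a log2 fold change of -1.52. ZNF529 (chr19:36543616-36573288, minus strand) was the 1 lower member at unadjusted p under 0.05 in which hypertonic library 2 was the lowest of the 4, with 28.5 and 22.5 CPM in hypertonic libraries 1 and 2, against 51.8 and 53.8 CPM in isotonic libraries 1 and 2.

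The remaining lower members had the same form. ZNF738 had 4.73 and 7.03 CPM in hypertonic libraries 1 and 2, against 19.3 and 12.3 CPM in the isotonic ones, and a log2 fold change of -1.43. ZNF805 had 5.36 and 12.5 CPM in the hypertonic libraries, against 26.1 and 21.1 CPM in the isotonic ones, with -1.41. ZNF582, which overlaps a same-strand gene and is known for promoter methylation in cervical cancer, had 3.51 and 4.17 CPM in the hypertonic libraries, against 12.1 and 9.50 CPM in the isotonic ones, with -1.49. ZNF784, at an unadjusted p of 0.0515 by edgeR and so outside the 7, had only 4 and 17 counts in the hypertonic libraries, against 61 and 35 in the isotonic ones, and a log2 fold change of -1.96 with a standard error of 0.87.

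**Figure D1:**
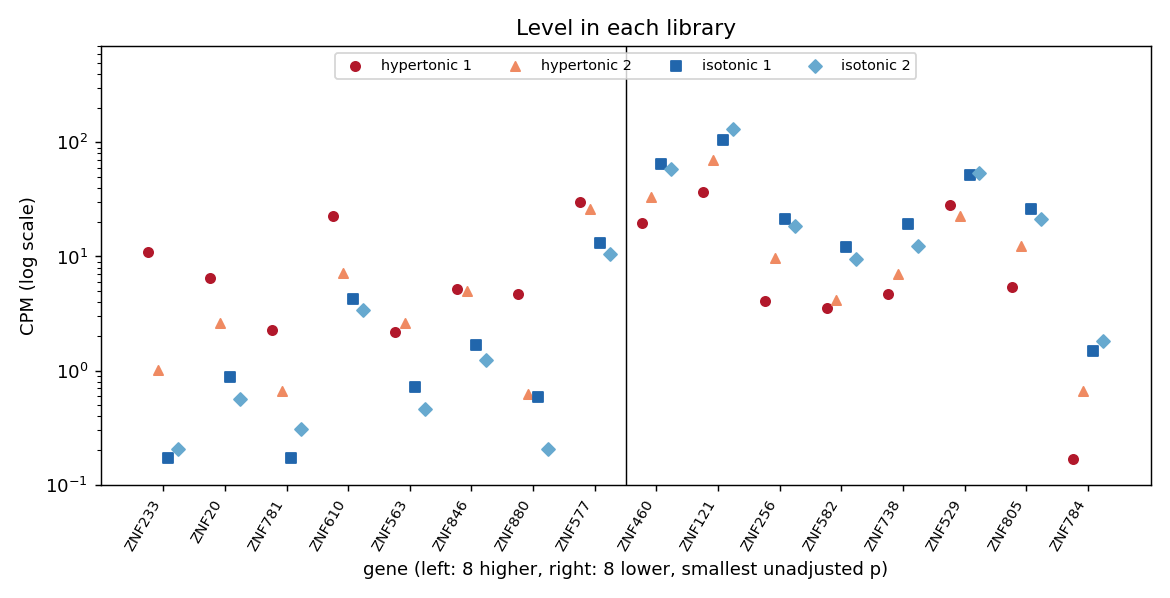
CPM in each library, on a log axis, for the 8 members with the smallest unadjusted p that were higher (left of the line) and the 8 that were lower (right) in hypertonic medium, with 1 point per library. In the 8 higher members both hypertonic points lie above both isotonic points, with hypertonic 1 at 10.9 and hypertonic 2 at 1.02 CPM in ZNF233. For ZNF233 and ZNF781 the filter on low counts fixed that order in advance. In the 8 lower members both hypertonic points lie below, as for ZNF460 at 19.6 and 32.9 CPM against 64.0 and 57.8 CPM.

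The strongest transcribed members showed how far the libraries of 1 group could part. ZNF283, a KRAB gene and the highest at 7.48 RPKM on average, had 115 and 223 CPM in hypertonic libraries 1 and 2, against 247 and 333 CPM in isotonic libraries 1 and 2, and a log2 fold change of -0.78 with a standard error of 0.45. ZNF551 had 5.91 and 19.02 CPM in the hypertonic libraries, against 26.7 and 27.2 CPM in the isotonic ones, with -1.11 and a standard error of 0.64. In both genes the hypertonic values were the lower ones, but the adjusted p was 0.618 for ZNF283 and 0.614 for ZNF551 (edgeR). ZNF146, which consists of little more than fingers and has no KRAB domain, had 70.0 and 161 CPM in the hypertonic libraries, and 134 and 156 CPM in the isotonic ones. Hypertonic library 2 was the highest of the 4 and hypertonic library 1 the lowest, so the log2 fold change of -0.33 with a standard error of 0.47 averages opposite values. ZNF544 had 11.99 and 25.6 CPM in the hypertonic libraries, and 10.2 and 18.99 CPM in the isotonic ones, with overlapping groups and a log2 fold change of 0.37.

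Among members above 0.3 RPKM, fold change ran against expression level. All 152 members that averaged at least 0.3 RPKM passed the filter on low counts. Those from 0.3 to 1 RPKM had a median log2 fold change of -0.11 (108 genes), those from 1 to 3 RPKM -0.47 (40 genes) and those at 3 RPKM or more -0.55 (4 genes). The order was the same over all protein-coding genes, at -0.05, -0.31 and -0.42. Spearman's rho between mean level and log2 fold change over these 152 members was -0.31, a description only, since both come from the same 4 libraries. From 0.1 to 0.3 RPKM 41 of 43 members were tested, ZNF233 among them through 1 group alone. Their median was 0.15, against 0.27 over all protein-coding genes of that level. No median is given for members under 0.1 RPKM. Of those 47, 33 were not tested, and a gene that passed through 1 group alone had to differ. Of the 40 members from 1 to 3 RPKM, 18 (45%) had both hypertonic libraries below both isotonic ones and 0 had both above, where 33.6% and 8.16% of all tested genes of that level did.

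The clusters did not share 1 median. The cluster from ZNF557 to ZNF846 (chr19:7069444-9768734), which holds ZNF121, had a median log2 fold change of -0.63 over 12 tested members, with 10 of 12 negative and 7 with both hypertonic libraries below both isotonic ones (58.3%, background 17.5%). The median deviation of its members from the isotonic mean, in log2 CPM, was -1.06 in hypertonic library 1 and -0.22 in hypertonic library 2. The cluster from ZNF101 to ZNF254 (chr19:19668851-24129961), the one nearest the centromere on the short arm, holds 37 members, of which only 16 had enough counts to test. Its median was -0.37 with 11 of 16 negative, and its medians were -0.36 in hypertonic library 1 and -0.48 in hypertonic library 2. The small cluster from ZNF554 to ZNF77 (chr19:2819874-2944933) had a median of 0.59 over 4 tested members, led by ZNF554 with 5.66 and 3.22 CPM in hypertonic libraries 1 and 2, against 1.96 and 1.39 CPM in the isotonic ones.

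The remaining clusters had medians near 0. They were 0.02 from ZNF653 to ZNF791 (23 tested), -0.16 from ZNF807 to ZNF792 (5 tested), -0.01 from ZNF565 to ZNF573 (23 tested), 0.05 from ZNF575 to ZNF296 (22 tested), 0.09 from ZNF175 to ZNF331 (38 tested) and -0.12 from ZNF628 to ZNF446 (56 tested). The last of these is the largest, with 57 members (chr19:55476332-58481230). At unadjusted p under 0.05 (edgeR), 4 of its 56 tested members were lower (background 2.01%) and 1 was higher (background 8.89%). In the cluster from ZNF175 to ZNF331, 4 of 38 were higher and 0 lower, against the same backgrounds. In the cluster from ZNF807 to ZNF792 the member with the smallest p was ZNF181, with 5.62 and 11 CPM in the hypertonic libraries, against 13.6 and 15.1 CPM in the isotonic ones. No test of a difference between clusters was run.

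**Figure D2:**
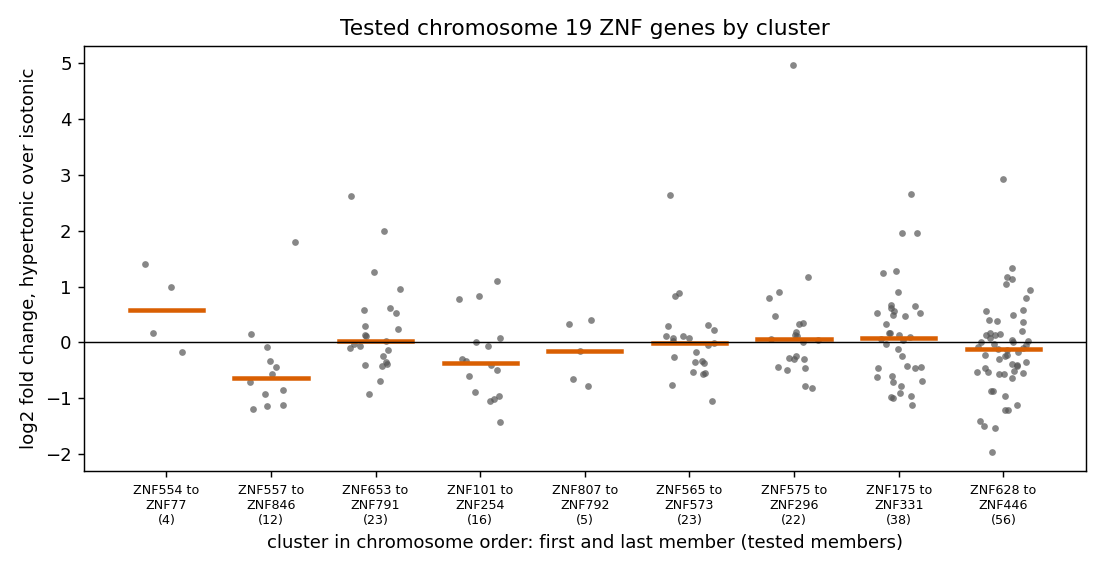
Log2 fold change, hypertonic over isotonic, of each tested member (points) in the 9 clusters in chromosome order, with the median as a bar. The cluster from ZNF557 to ZNF846 has the lowest median, -0.63, and the single point near 5 in the cluster from ZNF575 to ZNF296 is ZNF233.

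Gene length separated the 2 hypertonic libraries rather than the 2 groups. Length here runs from the start to the end of the deposited interval. Where same-strand genes overlap, the counted length can be shorter, as in ZNF653 with 1.76 kb counted of 22.5 kb. Such members can stand in a longer class than their counted length. The interval had a median of 22.4 kb, against 24.7 kb for the same genes in GENCODE release 29. In 44 of 242 members it was under 80% of the GENCODE length. The 69 shortest tested members (up to 16.0 kb) had a median log2 fold change of -0.17, the 69 in the middle (up to 26.5 kb) 0.07 and the 69 longest -0.06. In hypertonic library 1 the median deviation from the isotonic mean was -0.87 in the shortest class, -0.28 in the middle and -0.21 in the longest, while in hypertonic library 2 it was 0.17, 0.18 and 0.02. Over the 207 members Spearman's rho of length was -0.0012 with the fitted fold change, 0.20 with the deviation of hypertonic library 1 and -0.21 with that of hypertonic library 2, as a description. The difference of the longest minus the shortest class was 0.11 in the fit, -0.34 without hypertonic library 1 and 0.64 without hypertonic library 2, so its direction rests on which of these libraries is used, and it was -0.11 among members without same-strand overlap and 0.16 with GENCODE lengths. All protein-coding genes showed the same opposite order.

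The longest members differed little between groups. ZNF536, a gene best known from neurons, had the longest deposited interval, 186 kb of a 485 kb gene in GENCODE. It had 8.11 and 6.99 CPM in hypertonic libraries 1 and 2, and 7.87 and 8.10 CPM in isotonic libraries 1 and 2, with a log2 fold change of -0.08. ZNF675 (162 kb) had 25.4 and 20.8 CPM in the hypertonic libraries, and 36.6 and 24.7 CPM in the isotonic ones, with -0.41. ZNF254 (96.6 kb) had 26.02 and 13.3 CPM in the hypertonic libraries, and 18.6 and 18.4 CPM in the isotonic ones, with 0.09. In all 3 the groups overlapped. The shortest deposited intervals of tested members, those of ZNF625 (1.33 kb of 14.6 kb in GENCODE), ZNF878 (1.41 kb of 9.13 kb) and ZNF547 (2.44 kb of 16.1 kb), are remainders of genes that overlap a same-strand gene. They had log2 fold changes of -0.35, -0.69 and 0.79 with standard errors of 0.75, 0.78 and 0.77.

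**Figure D3:**
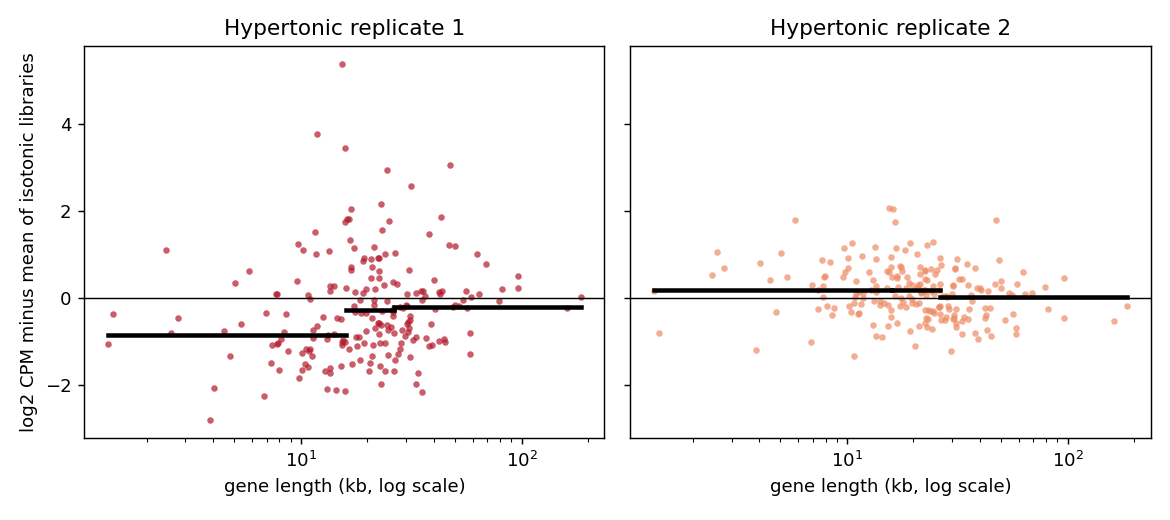
Deviation of each tested member in log2 CPM from the mean of the isotonic libraries against gene length on a log axis, for hypertonic replicate 1 (left panel) and hypertonic replicate 2 (right panel), with the median of each length class as a bar. The bars run -0.87, -0.28 and -0.21 in replicate 1 and 0.17, 0.18 and 0.02 in replicate 2.

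Transcription that runs past the end of one gene can add reads to the next gene on the same strand, so members were split by the distance to the end of the upstream same-strand gene. That gene was itself a numbered ZNF gene of chromosome 19 for 85 of 242 members (35.1%), and 101 members overlap a same-strand gene. Of the 121 tested members without overlap, 44 had the upstream gene within 10 kb and a median log2 fold change of -0.23, and 77 had it farther away and a median of -0.33. The 86 tested members with an overlap had a median of 0.10. In finer classes the medians were -0.28 within 5 kb (22 genes), -0.08 from 5 to 10 kb (22 genes), 0.00 from 10 to 20 kb (30 genes), -0.49 from 20 to 50 kb (25 genes) and -0.34 beyond 50 kb (22 genes). The class from 20 to 50 kb had 21 of 25 members negative (84%), and ZNF233 is among its 4 positive members. At that distance 50.5% of all tested genes, 59.7% of all protein-coding genes and 66.7% of ZNF genes of other chromosomes were negative. The members of this class also had a higher median level, 0.699 RPKM, than those at 10 to 20 kb, 0.431 RPKM with 50% negative. The classes within 5 kb and from 5 to 10 kb, at 0.700 and 0.653 RPKM, had 63.6% and 54.5% negative. Beyond 50 kb 81.8% were negative, at 0.583 RPKM. The part of level in these medians was not tested.

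Other protein-coding genes of chromosome 19 had higher medians at short distance. Theirs were 0.48 within 10 kb (238 genes) and 0.03 beyond (303 genes), and ZNF genes of other chromosomes had -0.20 and -0.29. A further split, made after the values were seen, asked whether the upstream gene was the more strongly transcribed of the pair over the 4 libraries. Members within 10 kb of such a gene had a median log2 fold change of 0.38 (11 genes), and members within 10 kb of a weaker one -0.41 (33 genes). Beyond 10 kb the values were 0.13 (22 genes) and -0.39 (55 genes), and for other protein-coding genes of chromosome 19 within 10 kb they were 1.33 (116 genes) and -0.04 (122 genes). Because the split uses the member's own level, which runs against fold change as shown above, the part of level in it was not tested. Of the 10 higher members at unadjusted p under 0.05 (edgeR), 9 had an upstream gene above their own level, 6 of them without overlap. Of the 7 lower ones 0 did, against 31.4% of all tested members. The median level was 0.080 RPKM in the 10, 1.04 RPKM in the 7 and 0.595 RPKM over all tested members. A weak member more easily has a stronger gene upstream, so these counts cannot separate the upstream gene from level.

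The 4 members with the most active upstream gene within 10 kb gave mixed values. ZNF480 lies 1.13 kb behind ZNF766 and had 37.1 and 54.8 CPM in hypertonic libraries 1 and 2, against 62.9 and 61.4 CPM in isotonic libraries 1 and 2. ZNF615 lies 4.53 kb behind ZNF614 and had 17.7 and 16.2 CPM in the hypertonic libraries, against 14.8 and 8.82 CPM in the isotonic ones. ZNF418 lies 5.45 kb behind ZNF256 and had 3.38 and 12.5 CPM in the hypertonic libraries, and 12.1 and 10.9 CPM in the isotonic ones. ZNF211 had 12.2 and 12.9 CPM in the hypertonic libraries, and 12.3 and 7.02 CPM in the isotonic ones. Their log2 fold changes were -0.44, 0.52, -0.54 and 0.38, each smaller than its standard error except that of ZNF480, at -0.44 with 0.43. The groups did not overlap in ZNF480 and ZNF615, and overlapped in ZNF418 and ZNF211.

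**Figure D4:**
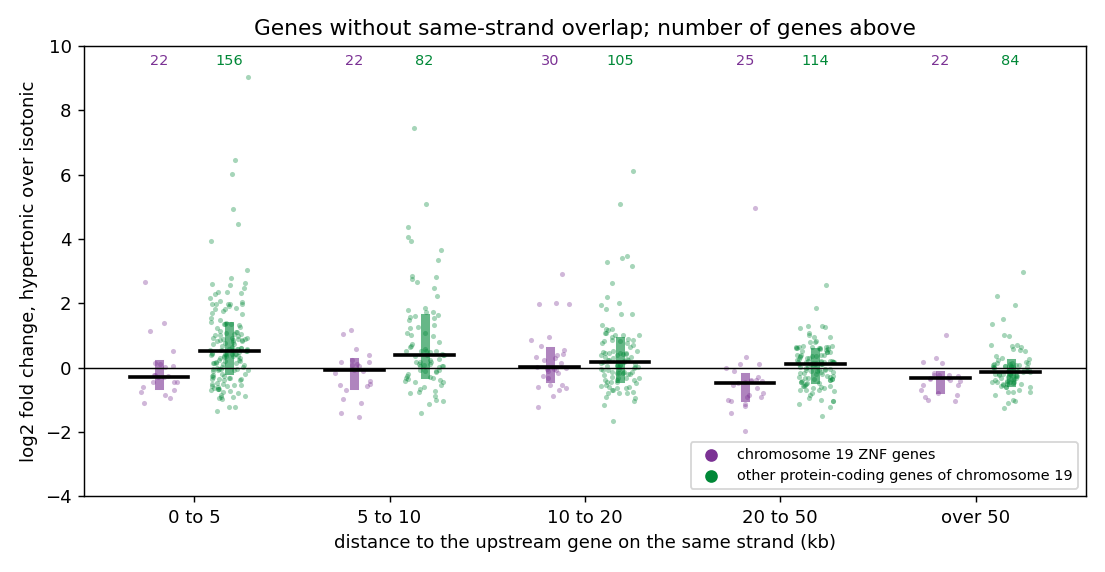
Log2 fold change, hypertonic over isotonic, by distance to the upstream gene on the same strand, for chromosome 19 ZNF genes (left of each pair) and other protein-coding genes of chromosome 19 (right), all without same-strand overlap. Bars span the quartiles, black lines are medians and numbers above count the genes. The ZNF medians run from -0.28 within 5 kb to -0.34 beyond 50 kb and are highest, 0.00, at 10 to 20 kb.

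One run of plus-strand genes in the cluster from ZNF175 to ZNF331, picked after its values were seen, holds both strong and weak members. ZNF766 and ZNF480 come first, then ZNF610 after a gap of 10.3 kb, ZNF880 2.14 kb further on, ZNF528 and, 10.8 kb behind it, ZNF534. ZNF480 had 0.877 and 1.795 RPKM in hypertonic libraries 1 and 2, against 1.79 and 1.59 RPKM in isotonic libraries 1 and 2. ZNF610, next in line, had 0.492 and 0.213 RPKM in the hypertonic libraries, against 0.110 and 0.0806 RPKM in the isotonic ones. ZNF880 had 0.198 and 0.0373 RPKM in the hypertonic libraries, against 0.0303 and 0.00970 RPKM in the isotonic ones. Its counts on the opposite strand, where another gene may contribute, were 102 and 74 in the hypertonic libraries, and 86 and 29.2 in the isotonic ones, as many as or more than its own outside hypertonic library 1.

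ZNF528 interrupts the series with 0.246 and 0.877 RPKM in the hypertonic libraries, and 0.904 and 0.727 RPKM in the isotonic ones, on the CPM scale 7.43 and 19.1 against 22.7 and 20.02. ZNF534, downstream of it, had 0.0397 and 0.0272 RPKM in the hypertonic libraries, against 0.0104 and 0.00666 RPKM in the isotonic ones. ZNF534 passed the filter on low counts through its hypertonic libraries alone, so its direction was fixed in advance. The promoters of ZNF880, ZNF528 and ZNF534 hold both motifs in capitals above, and ZNF880 and ZNF534 had log2 fold changes of 2.66 and 1.96 with standard errors of 1.07 and 0.83, and ZNF528 had -0.69 with a standard error of 0.61. Without hypertonic library 1 the value of ZNF880 was 0.55 and that of ZNF534 1.33. The weak genes ZNF610, ZNF880 and ZNF534 were each highest in hypertonic library 1, the library in which ZNF766, ZNF480 and ZNF528 were lowest. ZNF233 stood in a like place, 22.6 kb behind ZNF227, which had 0.498 and 1.22 RPKM in the hypertonic libraries, and 1.17 and 0.785 RPKM in the isotonic ones. ZNF154 stood 10.6 kb behind ZNF671, which had 0.277 and 1.13 RPKM in the hypertonic libraries, and 0.976 and 0.450 RPKM in the isotonic ones. Whether transcription continues from the upstream gene into these genes was not tested, as the tables hold 1 value per gene.

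**Figure D5:**
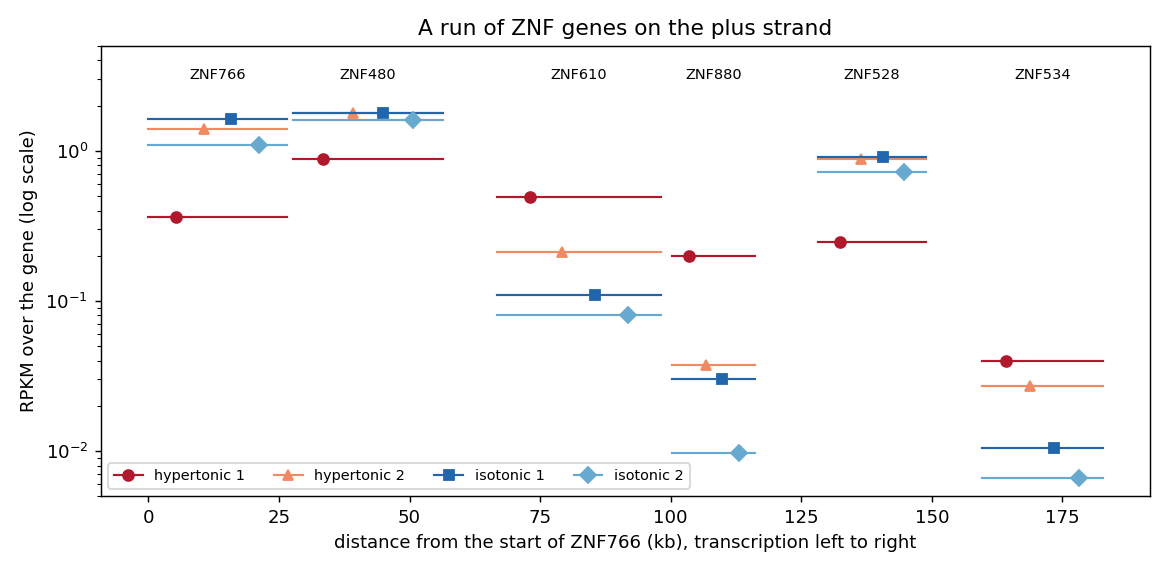
RPKM over each gene (log axis) in the 4 libraries along the run from ZNF766 to ZNF534, against distance in kb from the start of ZNF766, with 1 line per gene and library. In ZNF610, ZNF880 and ZNF534 hypertonic 1 is the highest of the 4, at 0.492, 0.198 and 0.0397 RPKM, and in ZNF766, ZNF480 and ZNF528 it is the lowest.

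The genes of the silencing pathway that KRAB zinc finger proteins recruit gave no call either. Of 33 genes listed, 32 were tested, and ZFP57, a zinc finger protein that protects imprints, was too low to test. None passed the adjusted test with edgeR, where 0.0% of all tested genes did, or with DESeq2 or limma-voom, and 0 had an unadjusted p under 0.05 by any of these. That depended on hypertonic library 2, without which edgeR called some of them, all lower. The median deviation of the 32 from the isotonic mean, in log2 CPM, was -0.53 in hypertonic library 1 and -0.02 in hypertonic library 2. Of the 32 genes, 21 had a negative log2 fold change (65.6%, background 47.6%), and the median was -0.15, against 0.04 over all tested genes. Their median level was 1.43 RPKM. Among all tested genes from 1 to 3 RPKM 71.9% were negative, with a median of -0.27, so the 32 were not lower than genes of like level. TRIM28, the scaffold that KRAB domains bind, had 22.7 and 26.1 CPM in hypertonic libraries 1 and 2, and 24.6 and 26.8 CPM in isotonic libraries 1 and 2, a log2 fold change of -0.08 with a standard error of 0.48. TRIM28 lies on chromosome 19 too, and it overlaps a same-strand gene. SETDB1, the H3K9 methyltransferase of the complex, had 31.9 and 62.6 CPM in the hypertonic libraries, and 67.4 and 59.8 CPM in the isotonic ones, a log2 fold change of -0.43 with a standard error of 0.47. It was -0.056 without hypertonic library 1 and -0.999 without hypertonic library 2 (edgeR, adjusted p = 0.0479). The genes with the smallest p-values were CHD4, the ATPase of the NuRD deacetylase complex, at 0.76 with a standard error of 0.44, SUMO2, a modifier of TRIM28, at -1.02 with 0.64, and MORC3 at -0.58 with 0.40. With 1 library left out CHD4 ran from 0.31 to 1.07 and SUMO2 from -2.28 to -0.39, their ends being the values without 1 of the hypertonic libraries.

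Counts on the strand opposite to the ZNF genes took a larger share in hypertonic medium. Over the 114 members that have an entry for both strands and no annotated gene on the opposite one, the opposite strand held 6.17% and 1.79% of their counts in hypertonic libraries 1 and 2, against 0.728% and 0.988% in isotonic libraries 1 and 2. The groups did not overlap, but with 2 libraries a group an exact two-sided permutation test cannot give a p below 0.333. Members with a gene on the opposite strand that ends within 10 kb of their own end had 13.2% and 4.58% in the hypertonic libraries, against 1.92% and 2.85% in the isotonic ones (26 genes). Members with no such end within 10 kb had 3.45% and 1.10%, against 0.420% and 0.581% (88 genes). These shares pool the counts of a class, so a few genes can carry them. The median share per gene in the 26 was 1.12% and 1.55% in hypertonic libraries 1 and 2. In isotonic libraries 1 and 2 it was 0.277% and 1.47%, so the groups overlapped. In the 88 it was 0.200% and 0.187% in the hypertonic libraries, against 0 and 0 in the isotonic ones. Single genes were less uniform. The share was higher in both hypertonic libraries in 24 of the 114 (21.1%, against 16.6% of all genes with both entries) and lower in both in 7 (6.14%, against 2.94%), and ZNF546, picked after its values were seen, had 442 and 60 opposite-strand counts in the hypertonic libraries, against 20 and 25 in the isotonic ones. Over all genes with both entries, annotated overlaps included, the share was 8.68% and 6.10% in the hypertonic libraries, against 3.20% and 3.40% in the isotonic ones. The labels mention strand-specific reads for certain samples without saying which, so whether the libraries were equally strand-specific cannot be told.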

How the data were processed

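Bru-seq was measured in 2 hypertonic and 2 isotonic U2OS libraries, grouped by their titles and treatment labels. Per the submitters' processing notes the builds were GRCh38 and hg38 and the tools STAR 2.5.3a, Bowtie2 2.3.3, CASAVA 1.8.2 and bedtools 2.16.2; the gene annotation used was not given in the sources used here. The authors deposited, per gene and strand, an estimated count and an RPKM value in tables without a header, both meanings read from the values; 105538 entries per table. Rows without a matched gene in GENCODE release 29 held 0.165 to 0.209% of counts and regions shared by several genes 3.11 to 3.48%, and both were left out. Total counts were 28367788 and 23048409 in the hypertonic and 44888307 and 23410787 in the isotonic libraries.

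Estimated counts were rounded, filtered (filterByExpr), TMM-scaled and tested with edgeR 4.0.16 in R 4.3.3, as a two-sided quasi-likelihood test over all sense entries with Benjamini-Hochberg adjustment at 0.05. CPM values used a prior count of 2 where logged. Standard errors are the log2 fold change over the square root of F. Distances and gene lengths use the start and end of the deposited intervals, of which 118 of 242 equalled the GENCODE ones. The counted length can be shorter where same-strand genes overlap. Genes named are the 8 higher and 8 lower with the smallest p, the 4 highest expressed, the 3 longest and 3 shortest, the first by p in each cluster, the 4 with the most active upstream gene, and those marked as picked after their values were seen. The members and lists were chosen with earlier results of these data known. Alternatives tried were other scalings, no filter, DESeq2 1.42.0, limma 3.58.1, a replicate block, each library left out, other distance limits and, chosen after seeing the data, GENCODE intervals and lengths and a level minimum. Fitting was tested on simulated data. One marker gene is not reported here.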

Additional observations from a re-analysis of the deposited data

Results flagged for a closer look

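The share of counts on the strand opposite to the 114 ZNF genes without an annotated gene there lies outside the main comparison, and it was above the isotonic libraries in both hypertonic ones, at 6.17% in hypertonic library 1 and 1.79% in hypertonic library 2, against 0.728% and 0.988% in isotonic libraries 1 and 2. No other value was singled out, since groups of 2 libraries are too small for one of them to be called apart.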

How the results depend on the processing

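Replicate numbers are shared by the groups, and same-numbered libraries deviated together with a correlation of only 0.02. Such a correlation cannot tell whether they were prepared together, and the labels give no batch. With a replicate block 1 member passed the adjusted test, ZNF233 with a log2 fold change of 4.37 (edgeR, adjusted p = 0.0187), where 1.81% of all tested genes did. In that fit 1 of 32 silencing genes had an unadjusted p under 0.05 (edgeR), against 2089 of all 21238 tested genes.

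ZNF233 also passed with DESeq2 (1 member; 2.82% of all tested genes) and without the filter on low counts (2 members, the other being ZNF493; 2.45% of all genes), and limma-voom called 0. Leaving out 1 library assumes that the lone library of its group varies like the others. The number of members called then ran from 0 to 49, the 49 (18 higher and 31 lower; 11.1% and 10.3% of all tested genes) coming without hypertonic library 2, and the number at an unadjusted p under 0.05 from 2 to 92. The median ran from -0.44 to 0.039, the length difference from -0.34 to 0.64 and the distance difference (within 10 kb minus beyond, 0.10 with all libraries) from 0.084 to 0.26. The distance difference was -0.024 with a limit of 5 kb, 0.34 with 20 kb and -0.18 for upstream genes of at least 1 RPKM. Scaling by total counts left 10 members (10 higher, 0 lower) and 1 of 32 silencing genes at an unadjusted p under 0.05 (edgeR), against 2290 of all 21238 tested genes. It moved the median of all genes to 0.26 and that of members to 0.17 (122 higher and 85 lower, against 95 and 112), and upper-quartile scaling gave 0.23 and 0.11. With a minimum of 0.3 RPKM 8 of 152 members remained (1 higher, 7 lower). From 0.3 to 1 RPKM these were 1 higher and 3 lower of 108, against 473 and 50 of all 6874 tested genes. From 1 to 3 RPKM they were 0 and 4 of 40, against 117 and 215 of 5125. At 3 RPKM or more they were 0 and 0 of 4, against 18 and 151 of 1449. Without the filter 3725 of all 37347 genes had an unadjusted p under 0.05 (edgeR). Silencing genes at an unadjusted p under 0.05 numbered 1 without the filter, and with 1 library left out their number depended on which one. The causes were not tested.

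Of 407 comparisons of a named gene with an alternative, 12 changed sign, in 8 genes. Total-count and upper-quartile scaling gave ZNF536 0.13 and 0.11 and TRIM28 0.16 and 0.11. With 1 library left out the log2 fold change ran from -0.23 to 0.018 for ZNF536, -1.12 to 0.11 for ZNF625, -0.51 to 0.49 for ZNF254, -1.06 to 0.11 for ZNF146, -1.77 to 0.082 for ZNF418, -0.28 to 0.85 for ZNF544 and -0.0066 to 0.81 for ZNF211.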
